A study of Mus musculus with 2 samples.

Results

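Replication-dependent histone genes were followed in sorted tumour cells of a mouse small cell lung cancer model, in 1 library from vehicle-treated mice and 1 from cisplatin-treated mice. The members were all genes of the deposited count tables whose symbol begins with Hist1h, Hist2h, Hist3h or Hist4. There were 69 of them among 28692 genes, and 49 counted as measured, with at least 50 UMIs (unique molecular identifiers, 1 per captured RNA molecule) over both libraries. The same rule left 13374 measured genes in all. The count of UMIs chose the measured members, so it is given as a description: Hist1h4n was just inside with 52 UMIs, and Hist1h2bk and Hist1h2ai were just outside with 48 each. The 20 members that were not measured held 225 UMIs in vehicle and 225 in cisplatin, 0.379% of the members' UMIs.

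All mice of both groups carried CGRPCreER/+ together with Rbf/f, P53f/f and Rosa26mTmG, among other alleles, on a strain background given as "Mixed". Deletable Rb and P53 and an inducible Cre recombinase expressed from the CGRP locus of neuroendocrine cells were thus common to treated and control tumours. GFP from the Rosa26mTmG reporter marks cells in which Cre has acted, and live GFP-positive cells of dissociated lung tumours were sorted before droplet capture, with 5000 cells loaded per library. Vehicle mice received saline, and treated mice 5 mg per kg cisplatin, a DNA-crosslinking drug, at intervals of 4 days over 2 weeks. Etoposide is added in the wording of the library preparation, and the title of the treated sample says only chemotherapy, so the labels do not settle which drugs were given. Age and the number of mice behind each library were not given in the sources used here. With 1 library per treatment nothing could be tested against replicates: each difference below compares 2 libraries, and the 95% interval of each level covers counting error only.

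Histones package DNA. The core classes H2A, H2B, H3 and H4 form the nucleosome, and linker histones of class H1 bind the DNA between nucleosomes. Replication-dependent histone genes lie in clusters, lack introns and are switched on with DNA synthesis, through NPAT, so that new histones match new DNA. Their messenger RNAs are unusual in ending at a conserved stem-loop, bound by the stem-loop binding protein SLBP, and not in a poly(A) tail. They are degraded when DNA synthesis stops. A poly(T)-primed method such as the 10x Genomics one records mainly the molecules that do carry a run of A, so the levels below are those of the captured molecules, and not of all histone messenger RNA.

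The stem-loop was read from the GENCODE M21 transcripts (GRCm38), in which 67 of the 69 members were found, as a fully paired stem of 6 bases that opens with GG around a loop of 4 bases, with the letters CTTT and AG across the stem and loop. It was present in the annotated transcript of 42 members, in 6 forms. The first form was held by 24 members of classes H1, H2A, H2B and H3, and the second by 7 members, all of class H4. The stem-loops below are those of genes that differed most between the libraries or were most abundant, 5′ to 3′, with the stem-loop in capitals and its flanks in lower case.
Hist1h1e: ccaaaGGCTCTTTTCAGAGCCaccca
Hist1h1c: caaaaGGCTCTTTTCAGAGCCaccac
Hist1h2ae: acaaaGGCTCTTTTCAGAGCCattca
Hist3h2ba: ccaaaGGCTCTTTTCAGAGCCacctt
Hist2h3c1: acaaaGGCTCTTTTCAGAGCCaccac
Hist1h4d: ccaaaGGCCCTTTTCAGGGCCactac
Hist1h4h: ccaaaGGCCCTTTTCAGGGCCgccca
Hist1h4i: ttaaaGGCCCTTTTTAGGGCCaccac
Hist1h1e, Hist1h1c, Hist1h2ae, Hist3h2ba and Hist2h3c1 share the same 16 letters, and Hist1h4d and Hist1h4h share theirs. As given below, these genes differed between the libraries in opposite directions.

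The tumour cells numbered 3647 in vehicle and 4205 in cisplatin, with 32032966 and 28524488 UMIs and medians of 8206 and 5946 UMIs per cell. They were barcodes with at least 500 genes, at most 10% mitochondrial UMIs, a UMI of at least 3 of 10 neuroendocrine markers and fewer than 3 rare markers of any of 8 other cell types. Neuroendocrine markers summed to 8225 CPM (UMIs scaled to a common library total) in vehicle and 10256 in cisplatin, with none at 0. Median mitochondrial shares were 2.78% and 3.36%. The libraries shared 23 barcodes, and no doublet caller was used. A set of 6 genes, called delta-cell markers here (Sst, Pnoc, Ceacam10, Hhex, Isl1, Hoxb8), summed to 58.1 CPM in vehicle and 1080 in cisplatin. In cisplatin 4 of the 6 reached 100 CPM, and in vehicle none did. The name is a label, and the identity of cells that hold these markers was not tested. Airway markers summed to 208 and 479 CPM, and alveolar markers to 31.5 and 183 CPM. Erythroid markers summed to 53.9 and 0.736 CPM.

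Summed over the 69 members, histone UMIs were higher in cisplatin, at 1715 CPM (interval 1701 to 1730) in vehicle and 2237 CPM (2219 to 2254) in cisplatin, a log2 ratio of 0.38. Ratios are cisplatin over vehicle with 1 CPM added to each. Without the cells that held delta-cell markers, described below, the log2 ratio was 0.17. The sum hid a split. The 4 most abundant members, Hist3h2ba, Hist1h2bc, Hist1h1c and Hist3h2a, stood at 1006 CPM in vehicle and 1754 in cisplatin, a log2 ratio of 0.80, and made up 58.6% and 78.4% of the members' UMIs. The other 65 members together stood at 709 CPM in vehicle and 482 in cisplatin, a log2 ratio of -0.56. They did not fall as a group. Among them the sums of H1 and H2A genes were lower in cisplatin, at 168 and 24.8 CPM and at 333 and 159 CPM. Those of H2B, H3 and H4 genes were higher, at 43.2 and 52.6, 40.9 and 87.5, and 125 and 159 CPM.

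Of the 49 measured members, 18 were at least 1.5-fold higher in cisplatin and 18 at least 1.5-fold lower. Over all measured genes, 8.1% were higher and 21.4% lower by that rule. The members' median log2 ratio was 0.01, beside -0.16 over all measured genes. Without the cells that held delta-cell markers, 15 members were higher and 18 lower, where 5.47% and 20.9% of all measured genes were. With all tumour cells and relative to the median gene at -0.16, 17 members were higher and 11 lower, where 10.4% and 10.1% of all measured genes were. Members thus passed the fold in both directions, and those that did spanned log2 ratios from -2.89 for Hist1h1e to 1.85 for Hist2h3c1. By class, 4 of 5 measured H1 genes were lower and 1 higher, 7 of 12 H2A genes lower and 3 higher, 4 of 12 H2B genes lower and 5 higher, 2 of 10 H3 genes lower and 5 higher, and 1 of 10 H4 genes lower and 4 higher. A member measured mainly through the library where it is high had to differ, so these counts are a description of the measured members.

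**Figure D1:**
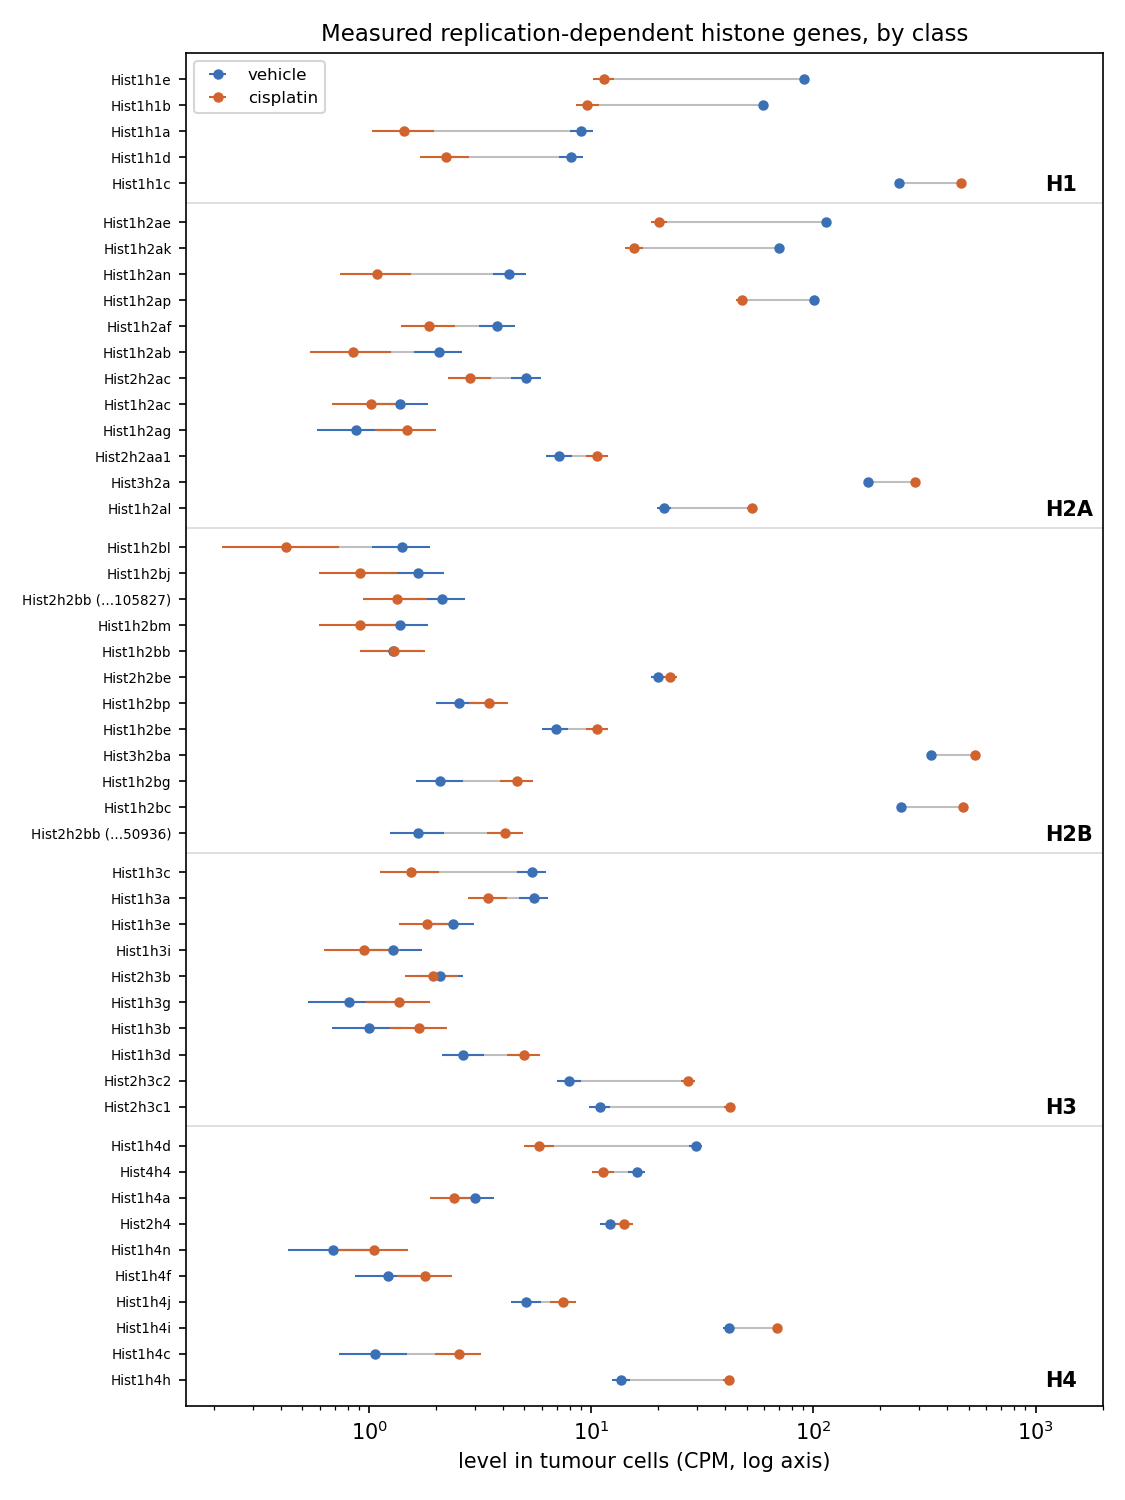
Level of each of the 49 measured histone genes in tumour cells of the vehicle (blue) and cisplatin (orange) library, in CPM on a log axis, grouped by class and ordered by ratio; bars are exact 95% Poisson intervals of the counts. In class H1, 4 genes lie lower in cisplatin and Hist1h1c lies higher; Hist2h3c1 has the largest ratio, from 10.9 to 42.0 CPM.

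The lowest ratios of all members were those of the linker histones Hist1h1e and Hist1h1b. Hist1h1e (chr13:23620629-23622558 of GRCm38, minus strand, protein coding) was counted at 90.9 CPM (87.6 to 94.2; 2911 UMIs) in vehicle and 11.4 CPM (10.2 to 12.7; 324 UMIs) in cisplatin, a log2 ratio of -2.89. Hist1h1b (chr13:21779883-21780625, minus strand) stood at 59.6 CPM in vehicle and 9.61 in cisplatin, a log2 ratio of -2.51. Both are somatic linker histones whose synthesis is coupled to replication. Hist1h1a, at 9.02 and 1.44 CPM, and Hist1h1d, at 8.12 and 2.21 CPM, were lower too, with log2 ratios of -2.04 and -1.51.

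Together the 5 H1 genes other than Hist1h1c stood at 168 CPM in vehicle and 24.8 in cisplatin. The fifth measured linker histone went the other way. Hist1h1c (chr13:23738808-23740367, plus strand) stood at 243 CPM (237 to 248; 7776 UMIs) in vehicle and 462 CPM (455 to 470; 13190 UMIs) in cisplatin, 1.90-fold higher. Hist1h1c thus held 59.2% (58.3 to 60, exact Clopper-Pearson) of H1 UMIs in vehicle and 94.9% (94.5 to 95.3) in cisplatin. For Hist1h1e the shares were 22.1% (21.4 to 22.9) and 2.33% (2.09 to 2.60). Hist1h1t, the testis linker histone, was not measured, with 1 and 4 UMIs. Hist1h1e overlaps Hist1h2be on the same strand in the annotation and shares 32.0% of its 50-base words with other transcripts, so reads of this pair cannot be fully told apart. Hist1h2be itself was higher in cisplatin, at 6.90 and 10.6 CPM.

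Promoter sequences show what the 2 linker genes of opposite direction and Hist1h1b have in common. Entries of the RefSeq table for GRCm38.p6 were matched for 59 members. The 120 bases before the annotated start are given 5′ to 3′ on the gene's strand, with motif matches in capitals. The H1 box is AAACACA. The CCAAT box may also lie on the other strand, where it reads ATTGG on the strand shown. The TATA box was searched as TATAAA.
Hist1h1c, chr13:23738687-23738806, plus strand: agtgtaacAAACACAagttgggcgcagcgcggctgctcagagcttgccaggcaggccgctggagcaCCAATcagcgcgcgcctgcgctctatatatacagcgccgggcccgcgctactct
Hist1h1e, chr13:23622559-23622678, minus strand: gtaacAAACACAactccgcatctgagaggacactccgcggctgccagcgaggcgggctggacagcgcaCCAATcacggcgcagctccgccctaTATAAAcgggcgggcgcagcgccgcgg
Hist1h1b, chr13:21780626-21780745, minus strand: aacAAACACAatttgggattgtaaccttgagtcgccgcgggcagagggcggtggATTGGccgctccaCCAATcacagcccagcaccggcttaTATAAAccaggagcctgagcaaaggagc
All 3 hold the H1 box and a CCAAT box nearer the start. The letters TATAAA were found in the windows of Hist1h1e and Hist1h1b and not in that of Hist1h1c. In 250 bases before the start and on both strands, AAACACA was found in 5 of 6 H1 promoters (83.3%), in 13.6% of all 59 member promoters and in 6.25% of all 32851 promoters in the table. CCAAT was found in 81.4% of member promoters and 33.8% of all, TATAAA in 49.2% and 12.4%, and the octamer ATTTGCAT in 20.3% and 1.60%. The octamer was confined to 7 of 17 H2A and 5 of 14 H2B promoters among the members, and CCAAT was found in 3 of 12 H4 promoters. These are matches of letters, not measured binding.

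Among H2A genes, which encode a core histone paired with H2B, the most abundant Hist1 members were lower in cisplatin. Hist1h2ae stood at 114 CPM (110 to 117) in vehicle and 20.2 CPM (18.6 to 21.9) in cisplatin, 5.61-fold lower. Hist1h2ak stood at 69.7 and 15.6 CPM, and Hist1h2ap at 101 and 47.5 CPM, with log2 ratios of -2.09 and -1.07. Hist1h2ap shares 93.1% of its 50-base words with other transcripts and Hist1h2ak 52.3%, so the division of reads among such copies is uncertain. Hist3h2a, in the small Hist3 cluster on chromosome 11, was higher in cisplatin, at 177 CPM (172 to 181) and 285 CPM (279 to 292). Hist3h2a overlaps Trim17 on the same strand. Hist1h2al, annotated in GENCODE M21 as a processed pseudogene outside the cluster, was counted at 21.3 and 52.9 CPM. Without Hist3h2a, the H2A class stood at 333 CPM in vehicle and 159 in cisplatin, and with it at 510 and 444 CPM.

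Class H2B was carried by Hist3h2ba and Hist1h2bc. Hist3h2ba stood at 337 CPM (331 to 344) in vehicle and at 534 CPM (526 to 543) in cisplatin, and Hist1h2bc at 249 CPM (243 to 254) and 472 CPM (464 to 480). The log2 ratios were 0.66 and 0.92. These 2 genes lifted the class sum from 629 to 1059 CPM, a log2 ratio of 0.75, while the other 17 H2B genes together stood at 43.2 and 52.6 CPM. Hist2h2be, at 20 and 22.5 CPM, differed by less than 1.5-fold. Hist1h2be was 1.54-fold higher in cisplatin and Hist1h2bg, at 2.09 and 4.63 CPM, was 2.21-fold higher. Without the cells that held delta-cell markers, Hist1h2bc was 1.40-fold and Hist1h2be 1.27-fold higher, both under the limit. The symbol Hist2h2bb stands on 2 rows of the tables, which were kept apart: the protein-coding one, at 2.12 and 1.33 CPM, was lower in cisplatin, and the one annotated as Gm42743 in GENCODE M21, at 1.65 and 4.10 CPM, was higher.

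H3 genes, whose products carry many of the known histone tail modifications, had low levels, and their sum was higher in cisplatin, at 40.9 CPM (38.7 to 43.2) and 87.5 CPM (84.1 to 91.0). Hist2h3c1 stood at 10.9 CPM in vehicle and 42.0 in cisplatin, 3.84-fold higher, and Hist2h3c2 at 7.93 and 27.2 CPM, 3.43-fold higher. All 50-base words of Hist2h3c1 also occur in the overlapping transcript Gm20634, and 63.5% of those of Hist2h3c2 in other transcripts, so these counts may be shared among copies. Of the 3 other named H3 genes, Hist1h3a was lower in cisplatin, at 5.49 and 3.44 CPM, Hist1h3d was higher, at 2.65 and 4.98 CPM, and Hist1h3c was lower, at 5.4 and 1.54 CPM.

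In class H4, whose genes encode the partner of H3, members again went both ways. Hist1h4d stood at 29.5 CPM (27.6 to 31.4) in vehicle and 5.82 CPM (4.97 to 6.78) in cisplatin, 5.06-fold lower. Hist1h4h stood at 13.6 CPM (12.4 to 15) and 41.6 CPM (39.3 to 44.0), 3.06-fold higher. Hist1h4i, the most abundant H4 gene, stood at 41.5 and 68.8 CPM, and at 41.6 and 53.2 CPM without the cells that held delta-cell markers. Hist4h4, on chromosome 6, at 16 and 11.3 CPM, and Hist2h4, at 12.1 and 14 CPM, differed by less than 1.5-fold. The class sums were 125 and 159 CPM, a log2 ratio of 0.35.

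Tumour cells were then divided by cell cycle state. Each cell with at least 3000 UMIs was thinned to 3000 (143 vehicle and 357 cisplatin cells fell below and were left out), and its UMIs over 38 S phase genes and over 48 genes of G2 and mitosis were each divided by their mean, 8.43 and 19.0 UMIs. Cells under both means were called low, and the others S or G2/M by the larger ratio. No histone gene was in either list. In vehicle, 1841 cells (52.5%) were low, 1044 (29.8%) S and 619 (17.7%) G2/M. In cisplatin, 1974 (51.3%) were low, 876 (22.8%) S and 998 (25.9%) G2/M. The states are ranges of a score and not types: 421 vehicle and 373 cisplatin cells lay within 10% of a limit.

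The summed histone level was highest in the G2/M state and lowest in the S state in both libraries. In vehicle the 69 members summed to 1352 CPM in low, 673 in S and 3958 in G2/M cells. In cisplatin they summed to 2222, 1384 and 2886 CPM. Levels in G2/M were thus 2.93-fold those in low cells in vehicle and 1.30-fold in cisplatin. The low S level was mainly that of the 4 most abundant members, with S over low ratios of 0.37 in vehicle and 0.58 in cisplatin. For the other 65 the ratios were 0.88 and 0.85. By class among those 65, they were 1.18 and 1.53 for H1, 1.21 and 0.92 for H2A, and 0.69 and 0.85 for H2B. H3 genes had 0.79 and 0.95, and H4 genes 0.53 and 0.68. G2/M cells exceeded low cells by at least 1.5-fold for 24 of 35 measured members in vehicle, where 12.6% of all measured genes did, and for 15 of 29 in cisplatin, where 13.9% did. S cells exceeded low cells for 4 of 27 measured members in vehicle (13.5% of all genes) and were lower for 15 (5.08% of all genes). In cisplatin they were higher for 4 of 26 (12.4%) and lower for 10 (6.32%). The counts were made in cells of different depth, with medians of 7649, 9591 and 11345 UMIs in low, S and G2/M cells of vehicle and 5210, 6679 and 8537 in those of cisplatin. With every cell thinned to the same 3000 UMIs, mean member UMIs per cell were 4.03, 1.83 and 11.6 in vehicle and 6.68, 3.80 and 8.51 in cisplatin, the same order of states.

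The G2/M state was also where the libraries differed in the opposite sense. Cisplatin was higher in low cells, with a log2 ratio of 0.72, and in S cells, with 1.04, but lower in G2/M cells, with -0.46. The 4 most abundant members stood at 1007 and 1849 CPM in low cells, 369 and 1070 CPM in S cells, and 1922 and 2130 CPM in G2/M cells of vehicle and cisplatin. For the other 65 members the values were 344 and 373 CPM in low cells and 305 and 315 CPM in S cells. The direction of these small differences depended on Hist1h2al, a processed pseudogene, and the Hist2h2bb row annotated as Gm42743. Without both, the remaining 63 stood at 314 and 290 CPM in low cells and 293 and 279 CPM in S cells. In G2/M cells those 65 stood at 2035 CPM (2002 to 2069) in vehicle and 756 CPM (738 to 774) in cisplatin, a log2 ratio of -1.43. Within G2/M cells, 18 of 39 measured members were at least 1.5-fold lower in cisplatin (19.9% of all genes) and 9 higher (7.57%). Within low cells, 9 of 30 were lower (21.4%) and 13 higher (7.37%), and within S cells 6 of 24 were lower (22.9%) and 12 higher (7.17%). The difference between states was not tested.

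Single genes fell into different patterns across states. Hist1h2ae stood at 19.6, 29.2 and 426 CPM in low, S and G2/M cells of vehicle, and at 4.77, 13.2 and 46.7 CPM in those of cisplatin. G2/M cells thus held 21.8 times the low level in vehicle and 9.80 times in cisplatin, and cisplatin was the lower library in each state. Hist1h1b, Hist1h2ak and Hist1h2ap had the same shape, with G2/M over low ratios of 25.1, 27.9 and 24.8 in vehicle and 12.5, 13 and 11.9 in cisplatin. Hist1h1e was less tied to the state, at 59.7, 57.3 and 203 CPM in vehicle, and was lower throughout in cisplatin, at 8.36, 8.36 and 17.1 CPM. Its level in cisplatin G2/M cells was below that of vehicle low cells.

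Hist1h1c, the linker histone that was higher in cisplatin, stood at 242, 81.8 and 476 CPM in low, S and G2/M cells of vehicle and at 516, 292 and 519 CPM in those of cisplatin. Levels in G2/M cells differed by a log2 ratio of 0.13 and those in S cells by 1.82. Hist1h2bc was at 235, 68.7 and 537 CPM in vehicle and 401, 288 and 704 CPM in cisplatin. Hist3h2ba was at 371, 157 and 528 CPM and at 627, 331 and 554 CPM. All 3 were lowest in S cells in both libraries. Hist1h4h, at 19.6, 7.44 and 10.9 CPM in vehicle and 46.4, 24.8 and 45.5 CPM in cisplatin, was not highest in G2/M cells in either library. Hist2h3c1 was higher in cisplatin in every state, at 8.27, 3.42 and 27.0 CPM in vehicle and 31.2, 28.9 and 66.6 CPM in cisplatin.

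**Figure D2:**
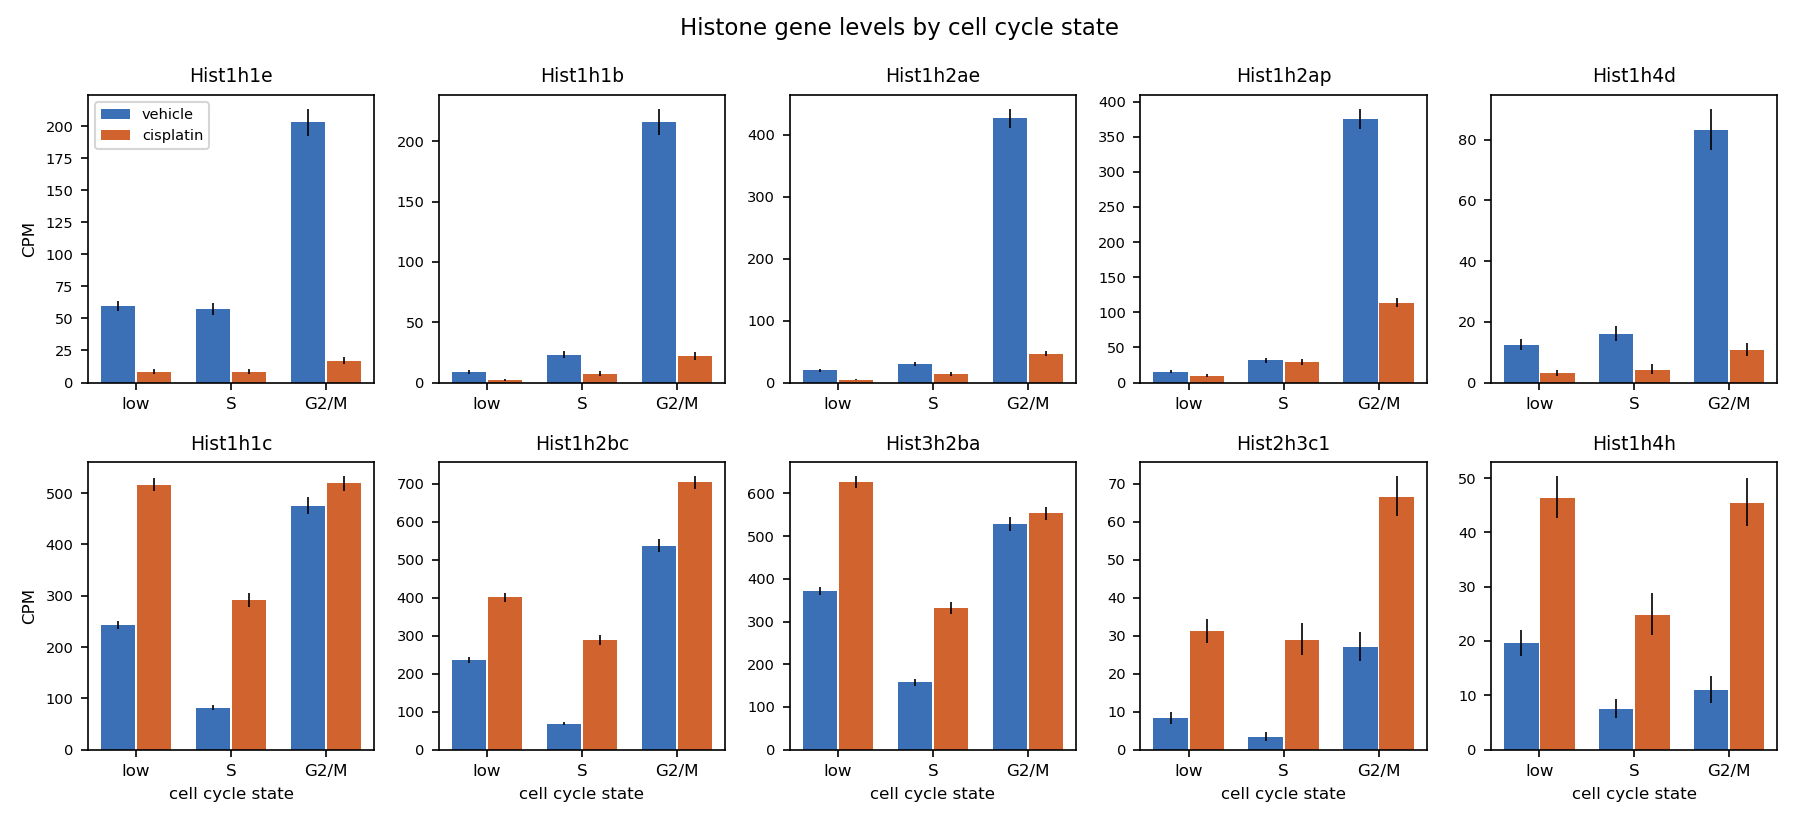
Level in CPM (linear axes starting at 0) of 10 histone genes in low, S and G2/M cells of the vehicle (blue) and cisplatin (orange) library; error bars are exact 95% Poisson intervals. The upper 5 genes are highest in vehicle G2/M cells (Hist1h2ae 426 CPM) and the lower 5 are higher in cisplatin in each state.

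The ordering of members by their G2/M over low ratio was alike in the 2 separately captured libraries. Over the 27 members with at least 50 UMIs in low and G2/M cells of each library, Pearson's r of the log2 ratios was 0.89 and Spearman's rho 0.77, given as a description across genes, which share libraries, cells and depth. The ratio was larger in vehicle for 22 of the 27. The log2 ratio of G2/M over low cells ran from -0.79 (Hist1h4h) to 4.66 (Hist1h2ak) in vehicle and from -1.26 (Hist1h2al) to 3.45 (Hist1h2ap) in cisplatin.

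**Figure D3:**
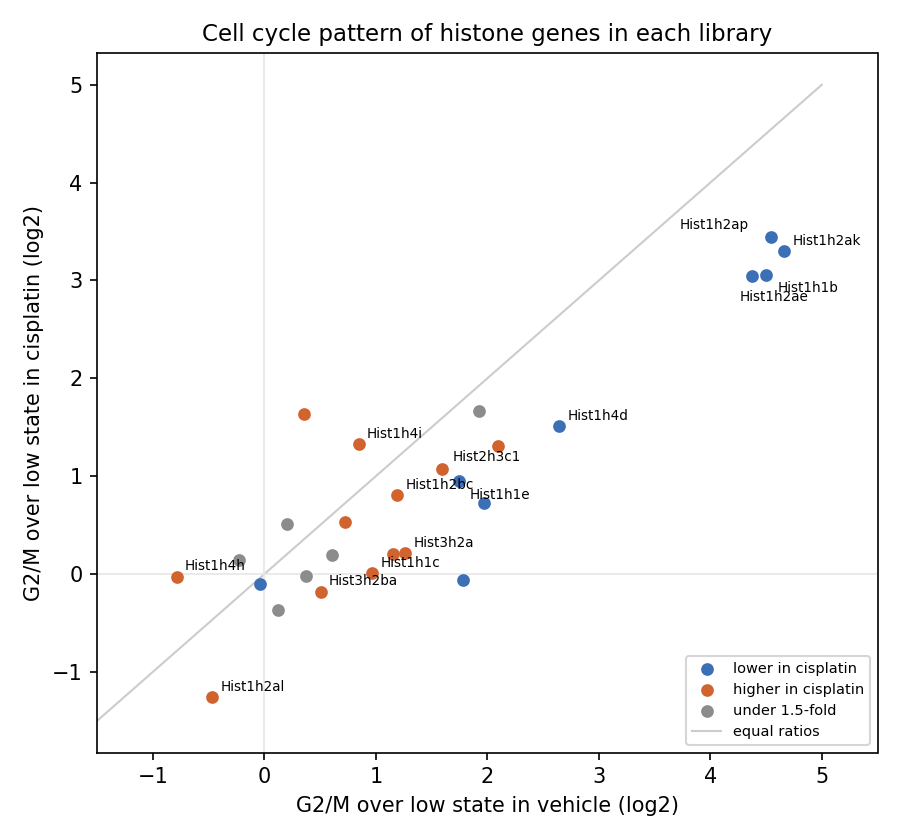
Log2 ratio of G2/M over low cells in vehicle (x axis) and cisplatin (y axis) for 27 histone genes, coloured by their call between the libraries over all tumour cells; the grey line marks equal ratios. Hist1h2ak, Hist1h2ap, Hist1h1b and Hist1h2ae lie apart at the upper right in both libraries, below the line.

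A finer division, chosen after seeing the data, split cells by whether they reached the mean of either list, with a separate mitotic part that held at least 8 UMIs over 10 mitotic genes. In vehicle the other 65 members stood at 344 CPM in cells of neither list (1841 cells), 215 in cells of the S list only (931), 1158 in cells of both lists (139), 1065 in cells of the G2/M list only (30) and 2090 in mitotic cells (563). In cisplatin the levels were 373 (1974 cells), 212 (700), 754 (311), 1061 (54) and 714 (809). The largest gap between the libraries was in the mitotic cells, 2.93-fold, and the cells of both lists differed by 1.54-fold. Hist1h1e was lower in cisplatin in all 5 divisions. Cells of both lists were 3.97% of vehicle and 8.08% of cisplatin cells. The part of this difference in the levels of the S and G2/M states was not tested.

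Cells with at least 3 UMIs over the 6 delta-cell markers, called delta-like here, numbered 23 in vehicle and 927 (22%) in cisplatin. Of the other cells, 13 and 373 held 2 such UMIs, just below the limit. Of the 4 most abundant members, 2 were higher in delta-like cells of cisplatin than in the other cisplatin cells: Hist1h1c at 700 against 370 CPM and Hist1h2bc at 797 against 346 CPM. The other 2 differed by less than 1.5-fold, Hist3h2ba at 558 against 525 CPM and Hist3h2a at 333 against 267 CPM. Hist1h4h stood at 68.2 against 31.3 CPM and Hist2h3c1 at 71.9 against 30.3 CPM. Hist1h1e, at 12.3 against 11 CPM, and Hist1h2ae, at 24.4 against 18.6 CPM, were low in both. Without the delta-like cells the log2 ratio of Hist1h1c was 0.62 and that of Hist1h2bc 0.48. That of Hist1h4h was 1.14 and that of Hist2h3c1 1.41. The class sums gave -0.05 for H1, 0.74 for H3 and 0.06 for H4. All 18 members called lower kept that call without these cells. Of the 18 called higher, 13 kept it. Hist1h2bc, Hist1h4i (1.28-fold), Hist1h2be and Hist1h3b (1.45-fold) fell under the limit, and Hist1h4n was no longer measured. Hist1h2bp and Hist1h4f came above it. Delta-like cells made up 22.7%, 25.5% and 21.2% of low, S and G2/M cells in cisplatin. Hist1h1e, Hist1h1b, Hist1h2ae and Hist1h2ak kept log2 ratios of -2.93, -2.47, -2.55 and -2.23 without them.

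Members of both directions lay side by side in the clusters. The Hist1 genes on chromosome 13 lie in 2 blocks of GRCm38 separated by 1488 kb. In the first (chr13:21715763-22043676; 22 members, 12 measured) 6 were lower in cisplatin and 3 higher. In the second (chr13:23531050-23934851; 30 members, 23 measured) 9 were lower and 9 higher. Over all measured genes 21.4% were lower and 8.1% higher. Of the 9 measured genes of the Hist2 cluster on chromosome 3, 2 were lower and 3 higher, and both Hist3 genes were higher. H2A and H2B genes often share a divergent promoter, and 12 such pairs had starts 176 to 306 bases apart. Both genes were measured in 5 pairs. None of the 5 had the same call and 2 had opposite calls. In the rest, a gene that passed the limit stood beside a gene that did not. In the first pair of opposite calls, Hist1h2ae was 5.61-fold lower in cisplatin and Hist1h2bg, whose start lies 176 bases away, was 2.21-fold higher. In the second, Hist1h2ag was higher, at 0.874 and 1.47 CPM, and Hist1h2bj lower, at 1.65 and 0.911 CPM. These calls rest on 70 and 79 UMIs over both libraries.

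**Figure D4:**
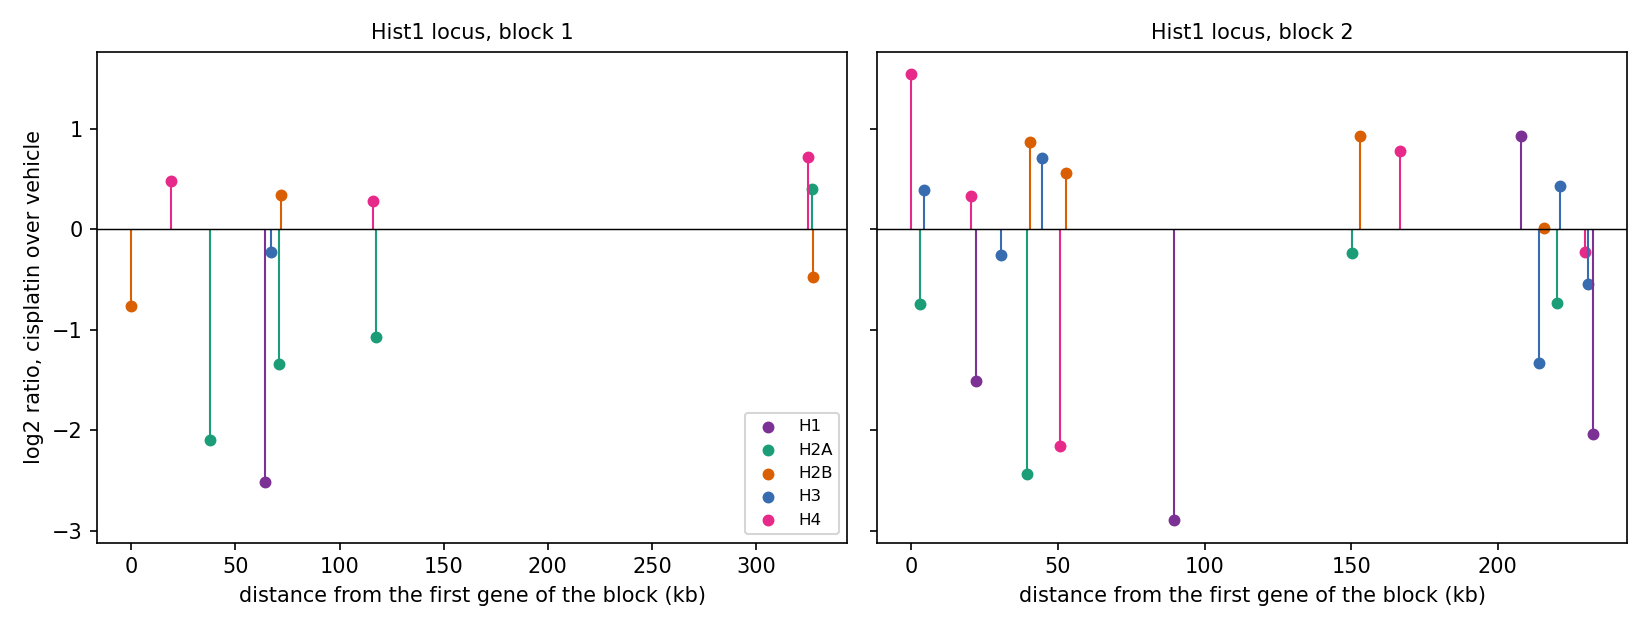
Log2 ratio of cisplatin over vehicle for the measured genes of both Hist1 blocks, by distance in kb from the first gene of the block and coloured by histone class. Lower and higher genes are intermixed along both blocks, and Hist1h1e has the lowest ratio, -2.89.

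The annotated 3′ ends differed among members. A poly(A) signal (AATAAA or ATTAAA in the last 50 bases of a protein-coding transcript) was present for 14 measured members, of which 7 were higher in cisplatin and 1, Hist1h2ae, was lower, with a median log2 ratio of 0.52. Without such a signal there were 34, of which 11 were higher and 16 lower, with a median of -0.25. Over all measured genes 8.1% were higher and 21.4% lower. In the annotated transcripts of 15 measured members, Hist1h1b and Hist1h2ak among them, no stem-loop of the form searched was found. Of these, 7 were lower and 4 higher, and Hist2h2be and Hist1h4a had a signal. Where such a transcript ends early, a signal further on could not be read. The 13 whose transcripts end within 60 bases after the stem-loop had a median of 0.28, with 5 lower and 4 higher. Transcripts that run past the stem-loop were annotated for Hist1h1c, by 840 bases, Hist3h2a, by 1643, and Hist3h2ba, by 169, each with a signal. For Hist1h2bc, which completes the 4 most abundant members and was also higher, neither a stem-loop nor a signal was found. Hist1h1e runs on for 1153 bases without one, and Hist1h2ap ends 3 bases after its stem-loop. The median G2/M over low log2 ratio in vehicle was 0.73 for members with a signal and 1.70 for those without. Which 3′ ends the UMIs came from was not analysed here.

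Genes of histone supply outside the family were compared by lists, beside all measured genes, of which 21.4% were lower and 8.1% higher, with a median log2 ratio of -0.16. Of 20 measured genes of histone transcription and 3′ end processing, 6 were lower in cisplatin and none higher, with a median log2 ratio of -0.41. Relative to the median gene, 2 were lower and 1 higher. Npat, the coactivator of histone gene transcription, stood at 27.8 and 17.7 CPM, and Casp8ap2, a component of the histone locus body, at 60.1 and 34.3 CPM. Cpsf1, a cleavage factor subunit, and Srrt, a cap-associated RNA processing factor, were lower as well, at 14.8 and 8.20 CPM and at 84.3 and 53.0 CPM. Slbp, which binds the stem-loop, differed by less than 1.5-fold, at 306 and 412 CPM. It was highest in S cells in both libraries, at 528 CPM in vehicle and 762 in cisplatin. Hist1h3a was likewise highest in S cells in both libraries, at 5.05, 6.56 and 4.90 CPM in low, S and G2/M cells of vehicle and 3.26, 4.56 and 2.97 CPM in those of cisplatin, with intervals that overlap.

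Of 11 measured genes of histone mRNA decay, 3 were lower and 1 higher, shares near those of all genes (21.4% and 8.1%), with a median of -0.24. Xrn1, a 5′ to 3′ exonuclease, was at 54.2 and 27.3 CPM, the uridylyl transferases Zcchc11 and Zcchc6 at 87.8 and 46.8 and at 41.2 and 22.8 CPM, and Upf1, an RNA helicase of mRNA decay, at 29.4 and 54.1 CPM. Among 25 measured chaperones and assembly factors 5 were lower (Ubn1, Atrx, Chaf1b, Cabin1 and Supt16) and none higher, with a median of -0.40. The share that was lower was near the 21.4% of all genes, and 2 of the 25 were lower relative to the median gene. Ubn1 of the HIRA complex stood at 122 and 64.5 CPM, Atrx at 225 and 125 CPM, and Chaf1b, a subunit of chromatin assembly factor 1, at 97.8 and 62.2 CPM. Nasp, a chaperone of H3 and linker histones, stood at 193 and 137 CPM, under the 1.5-fold limit.

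None of 11 variant histones with polyadenylated messages passed the limit in either direction, and their median log2 ratio was 0.07. Relative to the median gene, 2 were higher and none lower, where 10.4% and 10.1% of all measured genes were. The 11 were H1f0 (530 and 483 CPM), H2afx (173 and 210), H2afz (2093 and 2878), H3f3a (3436 and 2752), H3f3b (4821 and 7122) and 6 others. The log2 ratios of the 11 lay between -0.32 and 0.56, beside -2.89 to 1.85 for the 49 replication-dependent members. The variants named stood at 173 CPM or more and many of the 49 members at a few CPM, so the spans are not from like levels. Of the lists that defined the states, S phase genes had a median of -0.19, with 1 of 38 higher (Rrm2) and 5 lower (Cdca7, Atad2, Clspn, Pola1 and Ung), a smaller share than the 21.4% of all genes that were lower. The replication-linked genes Cdca7, Atad2 and Clspn stood at 30.3 and 14.5, at 90 and 48.2, and at 64.9 and 38.7 CPM. Genes of G2 and mitosis had a median of 0.00, with 4 of 48 higher and 2 lower. Among the latter, the proliferation marker Mki67 stood at 232 and 91.7 CPM and Cenpe, a kinetochore motor, at 105 and 61.7 CPM, while Cks2, a partner of cyclin-dependent kinases, was higher, at 346 and 629 CPM. In the mitotic core list, Ccnb1, a mitotic cyclin, stood at 129 and 203 CPM and Cenpf, a kinetochore protein, at 249 and 167 CPM.

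**Figure D5:**
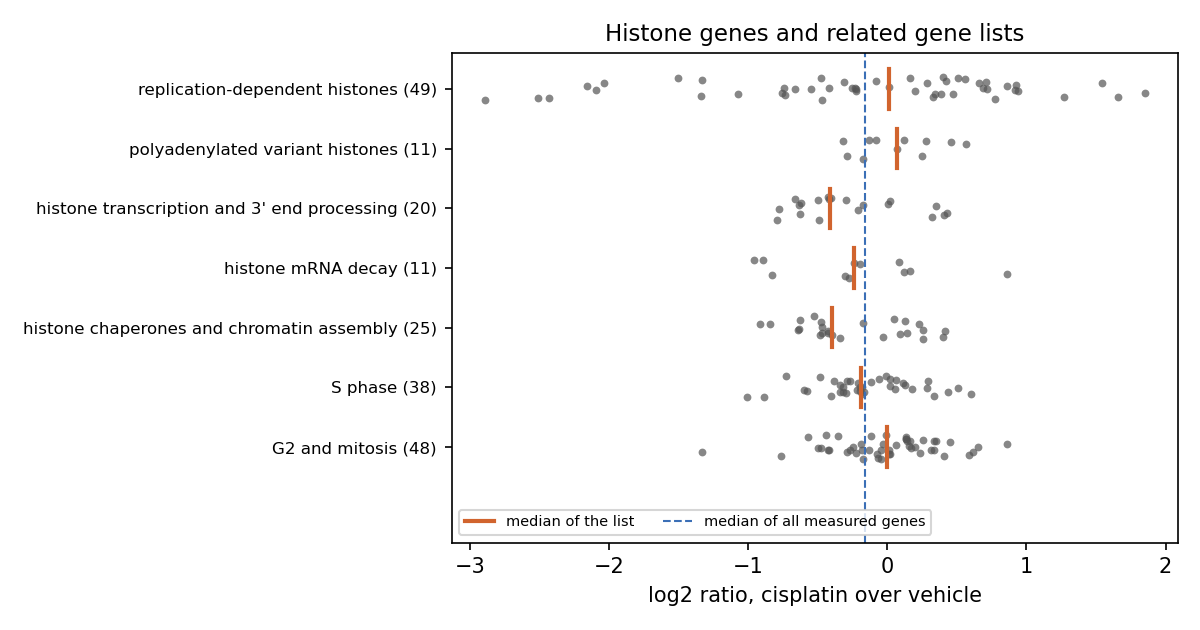
Log2 ratio of cisplatin over vehicle for each measured gene (points) of the replication-dependent histones and 6 related lists, with list medians in orange and the median of all measured genes (-0.16) as a dashed line; vertical scatter within a list only separates points. The 49 replication-dependent histones spread from -2.89 to 1.85, and the 11 variants from -0.32 to 0.56.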

How the data were processed

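Single-cell RNA was counted on the 10x Genomics platform in 2 libraries. The authors deposited unnormalized UMI counts for every gene in every barcode, per the file headers. Of their pipeline, Cell Ranger 2.0.2 and mm10 are known, per the submitters' processing notes. The vehicle library held 3726 barcodes with 32519922 UMIs (3672 kept) and the cisplatin library 4254 with 28777462 (4218 kept). UMIs were summed over tumour cells per library, scaled to CPM and compared as log2 ratios with 1 CPM added; a call needed CPM values 1.5-fold apart. Levels have exact Poisson and shares exact Clopper-Pearson intervals at 95%. UMIs count captured molecules and were not scaled by transcript length. The sources used here do not say whether the authors counted by strand, and reads shared among near-identical copies may be split or lost.

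The members, lists and markers were chosen with earlier results of these data known. Named genes were every measured H1 gene, the 5 members with most UMIs in each core class, up to 3 genes of each list with the largest ratio, and Slbp, Npat, Casp8ap2, Nasp, Chaf1b, H1f0, H2afz, H2afx, H3f3a and H3f3b; members named for their pairing, call or annotation (Hist1h2ag, Hist1h2bj, Hist1h3b, Hist1h4n, Hist1h2bp, Hist1h4f, both Hist2h2bb rows) and the other genes of the lists were picked after seeing values. TMM (edgeR 4.0.16) and median-of-ratios factors (DESeq2 1.42.0, R 4.3.3) gave other scalings. Python 3.11.15 with numpy 2.4.6, scipy 1.17.1, pandas 2.3.3, scanpy 1.11.5 and matplotlib 3.10.9 did the rest. The calls were tested on simulated data: of 198 genes changed 2-fold among 13385, 97.5% were called, as were 0.789% of unchanged genes. The simulated counts held counting error only, with no difference between mice or libraries. These shares are thus not error rates of the calls between the 2 libraries. Part of the genotype that both groups share is not reported here.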

Additional observations from a re-analysis of the deposited data

Results flagged for a closer look

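In 2 histone classes the summed log2 ratio of cisplatin over vehicle pointed in opposite directions in different cell cycle states, which is what drew attention to them. For class H1 it was 0.85 in S cells (171 and 311 CPM) and -0.74 in G2/M cells (943 and 564 CPM). For class H2A it was 0.76 in low cells (247 and 419 CPM) and -1.33 in G2/M cells (1539 and 613 CPM). The H1 values depend on Hist1h1c: the other 5 H1 genes were lower in cisplatin in every state, with log2 ratios of -2.53 in low, -2.19 in S and -3.33 in G2/M cells. Without Hist3h2a, class H2A had log2 ratios of 0.37, -0.03 and -2.15. The positive value in low cells, from 88.1 to 114 CPM, depends on Hist1h2al, annotated as a processed pseudogene. Hist1h2al alone stood at 29.0 CPM in low cells of vehicle and 78.8 CPM in those of cisplatin. With 1 library per treatment these differences between states were not tested.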

How the results depend on the processing

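No paired analysis was possible because each treatment has 1 library, and no replicate could be left out. TMM scaling gave log2 ratios of 0.54 for all members, 0.40, -0.044, 0.90, 1.23 and 0.50 for H1, H2A, H2B, H3 and H4, and 0.88, 1.21 and -0.32 for low, S and G2/M cells. Median-of-ratios scaling gave 0.56; 0.43, -0.021, 0.93, 1.25 and 0.52; and 0.91, 1.22 and -0.30. These scalings shifted all genes by 0.15 and 0.18 over all tumour cells, and by 0.17 and 0.19 in low, 0.17 and 0.18 in S and 0.14 and 0.15 in G2/M cells. Without delta-like cells the values were 0.17; -0.046 (reversed), -0.31, 0.55, 0.74 and 0.062; and 0.62, 0.65 and -0.72. Without the 4 most abundant members, an alternative added after seeing the data, they were -0.56 for all and -2.71 for H1 (both reversed), -1.07 for H2A, 0.28 for H2B, and 0.11, 0.048 and -1.43 by state. With Hist1h2al and the Hist2h2bb row annotated as Gm42743 also left out, the values by state were -0.11, -0.068 and -1.49. Thinning each cell to 3000 UMIs gave 0.47 for all, 0.32 for H1, -0.020 for H2A and 0.78 for H2B. Without the 5% of cells with most UMIs the values were 0.42 for all, -0.10 for H2A and -0.51 for G2/M cells. For G2/M cells, all kept barcodes gave -0.51 and at most 5% mitochondrial UMIs gave -0.48. Scanpy scores gave 0.81 for low cells, and G2/M from the mitotic genes alone gave 0.82 for low and 0.97 for S cells. With at least 200 UMIs required, 11 members were lower and 11 higher of 27 measured, and with a 2-fold limit 13 were lower and 7 higher. The cause of these shifts was not tested. All 25 named members kept their direction in the 9 settings that gave gene values. Members with few UMIs, such as Hist1h2ag, have intervals that overlap between libraries, so their calls rest on little depth.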
